A study of Mus musculus with 28 samples.

Results

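The G1 cyclins, their kinases and the INK4 inhibitors were followed through the reprogramming of mouse embryonic fibroblasts (MEFs). They are the D-type cyclins Ccnd1, Ccnd2 and Ccnd3, the E-type cyclins Ccne1 and Ccne2, the kinases Cdk4 and Cdk6, and the INK4 genes Cdkn2a, Cdkn2b and Cdkn2c. They were taken by gene symbol and are 10 of the 50600 genes of an RNA-seq table. No level entered the rule, but the set was chosen with earlier results of these data known. All 10 were found and all 10 passed the filter on low values. MEFs are primary fibroblasts grown from an embryo. These came from crosses of OG2 males, which carry a GFP reporter driven by Oct4, with 129 females, and the labels give their genotype as WT. The study asked whether SB203580 (p38i), an inhibitor of the p38 MAP kinases, changes reprogramming when it is given before or during induction. The 28 libraries fall into 14 groups of 2. Untreated MEFs and MEFs given p38i form a group each, and neither had been induced. The other 12 groups had all been infected with pMXs retroviruses for Oct4, Klf4 and Sox2 (OKS) and moved to the induction medium iCD1, and were collected on days 1, 3, 5 and 7. The controls among them, named ctr in the labels, are the DMSO cells of the study. The p38i cells had the inhibitor during induction, and the pre-p38i cells had it as MEFs, before induction. Untreated MEFs therefore differ from DMSO day 1 in virus, and in medium if the study's methods are followed (the labels give iCD1 for MEFs too). They may also differ in DMSO, by the study's naming, and in time in culture, since infection came before induction. Each library is a bulk sample of a culture in which cells reprogram unevenly. Nothing states that the 2 libraries of a group came from separate cultures or embryos, so p-values measure the spread between these libraries, which may be technical.

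In G1 phase, D-type cyclins bind CDK4 and CDK6, and the active kinases phosphorylate the retinoblastoma protein RB and its relatives. This frees E2F factors, which switch on the E-type cyclins and the genes of DNA synthesis, and cyclin E with CDK2 then carries the cell into S phase. INK4 proteins bind CDK4 and CDK6 and keep D-type cyclins off them. Cdkn2b and Cdkn2a lie side by side in the Ink4/Arf locus. Cdkn2a gives p16Ink4a from its inner start and p19Arf, an activator of p53, from its outer start. This locus is known for its rise in cultured fibroblasts and as a barrier to reprogramming. Cdkn2c (p18Ink4c) lies elsewhere on the same chromosome.

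The genes are placed on the mouse build GRCm38. Ccnd1 lies at chr7:144929931-144939925 on the minus strand, Ccnd2 at chr6:127125162-127152193 on the minus strand and Ccnd3 at chr17:47505051-47599691 on the plus strand. Ccne1 lies at chr7:38097984-38107534 on the minus strand and Ccne2 at chr4:11191351-11204779 on the plus strand. Cdk4 lies at chr10:127063534-127067920 and Cdk6 at chr5:3341485-3531008, both on the plus strand. Cdkn2a lies at chr4:89274471-89294653, Cdkn2b at chr4:89306289-89311032 and Cdkn2c at chr4:109660876-109667189, all on the minus strand. All 10 are protein-coding genes. The 2 coding transcripts of Cdkn2a start at 89282192 and 89294653, and the table gives a single value for the gene, so p16Ink4a and p19Arf transcripts cannot be told apart. Genes on the opposite strand share exon sequence with 6 members: LTO1 with Ccnd1, Gm43126 with Ccnd2, Bysl with Ccnd3, Ints8 with Ccne2, Tspan31 with Cdk4, and Gm17590, at 0 in all libraries, with Cdk6. The reads of such stretches cannot be told apart, since the strand used in counting is not given in the sources used here. Ints8, at 26 to 54 TPM, was higher than Ccne2 in every group, so the Ccne2 values are the least certain. Near-identical copies were low, with Ccnd3-ps at 0 in all libraries and Gm16505, a partial copy of Cdk6, at 0 to 3.

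Start-site windows from RefSeq in build GRCm38.p6 were at hand for 7 of the 10 members (10 windows of 250 bases before a transcript start). Those of the Ink4/Arf locus are shown because its 2 genes behaved differently in the data below, and that of Cdk4 because it holds repeated E-boxes. The start used for the outer Cdkn2a window is that of RefSeq, at 89294619. The motifs searched on both strands were TTTCCCGC (an E2F-type site), TGACGTCA (cAMP response element), TGANTCA (AP-1 site), CACGTG (E-box) and GGGCGG (GC box). They occur in 0.895%, 1.55%, 6.75%, 6.02% and 32.7% of the 32851 windows of all genes. Capitals mark TTTCCCGC in the Cdkn2a windows, TGACGTCA in the Cdkn2b window and CACGTG in the Cdk4 window. The sequences run 5′ to 3′ on the strand of the gene.
Cdkn2a, inner start (p16Ink4a), chr4:89282193-89282442, minus strand: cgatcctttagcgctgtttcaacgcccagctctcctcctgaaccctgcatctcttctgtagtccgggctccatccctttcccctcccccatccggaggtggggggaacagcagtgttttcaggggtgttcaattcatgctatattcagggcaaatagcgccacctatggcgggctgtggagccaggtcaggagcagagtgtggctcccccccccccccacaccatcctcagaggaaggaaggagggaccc
Cdkn2a, outer start (p19Arf), chr4:89294620-89294869, minus strand: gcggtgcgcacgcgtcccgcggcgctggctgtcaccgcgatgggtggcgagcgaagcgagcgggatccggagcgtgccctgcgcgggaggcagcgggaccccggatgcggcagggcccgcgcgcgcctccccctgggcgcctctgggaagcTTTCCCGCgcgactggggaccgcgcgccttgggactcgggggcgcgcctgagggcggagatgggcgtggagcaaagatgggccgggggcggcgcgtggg
Cdkn2b, chr4:89311033-89311282, minus strand: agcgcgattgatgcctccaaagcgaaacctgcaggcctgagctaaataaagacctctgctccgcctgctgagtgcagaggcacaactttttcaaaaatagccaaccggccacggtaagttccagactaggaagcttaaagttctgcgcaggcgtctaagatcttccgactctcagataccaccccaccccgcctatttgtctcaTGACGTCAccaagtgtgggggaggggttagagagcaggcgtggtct
Cdk4, chr10:127063285-127063534, plus strand: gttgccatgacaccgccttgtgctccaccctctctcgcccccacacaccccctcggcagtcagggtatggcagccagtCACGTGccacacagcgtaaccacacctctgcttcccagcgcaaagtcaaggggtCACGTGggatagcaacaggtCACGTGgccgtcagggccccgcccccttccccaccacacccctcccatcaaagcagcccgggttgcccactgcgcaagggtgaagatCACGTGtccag
The outer Cdkn2a window holds 1 E2F-type site, beginning at position -99 from the start, and 2 GC boxes, while the inner window holds none of the 5 motifs. The Cdkn2b window holds 1 cAMP response element, at position -46. The Cdk4 window holds 4 E-boxes, the nearest at position -11, and 1 GC box. The windows of Ccnd3, Ccne1, Cdk6 and Cdkn2c, not shown, hold no E2F-type site, cAMP response element or AP-1 site. The Cdk6 window holds 1 E-box, and GC boxes lie in windows of Ccnd3, Ccne1 and Cdkn2c. A match is a string of letters and not evidence of binding, and no window was at hand for Ccnd1, Ccnd2 and Ccne2.

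Every deposited value is a whole number, the total of a library is 991287 to 992537, and values are read as TPM, the length-corrected transcript share scaled to a fixed library total, rounded down. Levels can be compared between genes on this scale, but it keeps no depth. The unit is inferred from these totals, and no counting error can be given. In bulk libraries fewer cells of a type and less RNA per cell cannot be told apart. Changes were tested with limma on log2(TPM + 1), in 1 model of all 14 groups, for the 13230 genes whose mean was 1 or more. A change is called for a Benjamini-Hochberg adjusted p under 0.05 over all these genes, errors are standard errors (SE), and fold changes of low genes are understated on this scale. The spread is thus pooled over all groups, and when only the groups compared were fitted, 45 of the 127 member calls were lost. Quantile normalization moved the median change of all genes by 0.11, 0.13 and 0.11 for p38i against DMSO on days 1, 3 and 5, by 0.21 and 0.15 for p38i against pre-p38i on days 3 and 5, and by -0.23 for DMSO day 1 against MEFs. It reversed no member call and ended 11. Fibroblast markers were present (a sum of 10 markers of 12746 to 13528 TPM in untreated MEFs), and of 5 endothelial markers Emcn, Cdh5 and Pecam1 were at 0 to 2, Kdr at 1 to 9 and Tek at 0 to 67 (a sum of 2 in untreated MEFs and 61 in DMSO day 7).

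In MEFs, p38i changed 6 of the 10 members, against 17.9% of all genes tested. Ccnd1, Ccnd3, Cdk4, Cdk6 and Cdkn2c rose (9.73% of all genes rose) and Cdkn2a fell (8.15% fell). With only these 4 libraries fitted, 1 member (Ccnd3) and 6.83% of genes were called. When p38i was present during induction, 2, 5, 3 and 6 members were called on days 1, 3, 5 and 7 (16.1%, 21.4%, 26.6% and 34.1% of all genes), and 7 for the mean of the 4 days (47.9%, with 14.9% higher and 33% lower, and the higher genes 31.2% of those called or 54.4% after quantile normalization). Here the E-type cyclins fell and Cdkn2a rose. With pre-p38i, 3, 9, 8 and 8 members were called on these days (11.6%, 20.6%, 25.6% and 29.9%), and 8 for the mean of the 4 days (45%, with 27.3% higher and 17.7% lower). Here the D-type cyclins, Cdkn2a and Cdkn2b fell and Cdkn2c, Cdk4 and Ccne2 rose. Set directly against pre-p38i, p38i cells differed in 5, 7, 9 and 10 members (28.2%, 42.2%, 47.5% and 54.3%). Along the DMSO course, 6 members changed from untreated MEFs to day 1 (55.5%), 7 from day 1 to day 3 (44.5%), 1 from day 3 to day 5 (19.4%) and 6 from day 5 to day 7 (26.7%). Single libraries weighed on some counts. For p38i days 3 and 5 and pre-p38i day 3, the count fell whichever 1 of the 4 libraries compared was left out. The p38i day 5 count fell most without p38i replicate 1, and that of pre-p38i day 3 without DMSO replicate 1 or pre-p38i replicate 2. The p38i day 1 count fell without replicate 1 of DMSO day 1 or p38i day 1. That of p38i day 7 fell most without replicate 1 of DMSO day 7 or p38i day 7. With only the groups compared in the fit, 1, 1, 1 and 3 members were called for p38i on days 1, 3, 5 and 7 and 0, 2, 4 and 7 for pre-p38i (5 at an unadjusted limma p under 0.05 for pre-p38i day 1), while the means of the 4 days kept 6 and 8. The share of members called was near that of all genes with p38i on days 1 and 5 and in DMSO day 1 against MEFs. The comparisons with DMSO share the DMSO libraries and are not independent of each other.

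**Figure D1:**
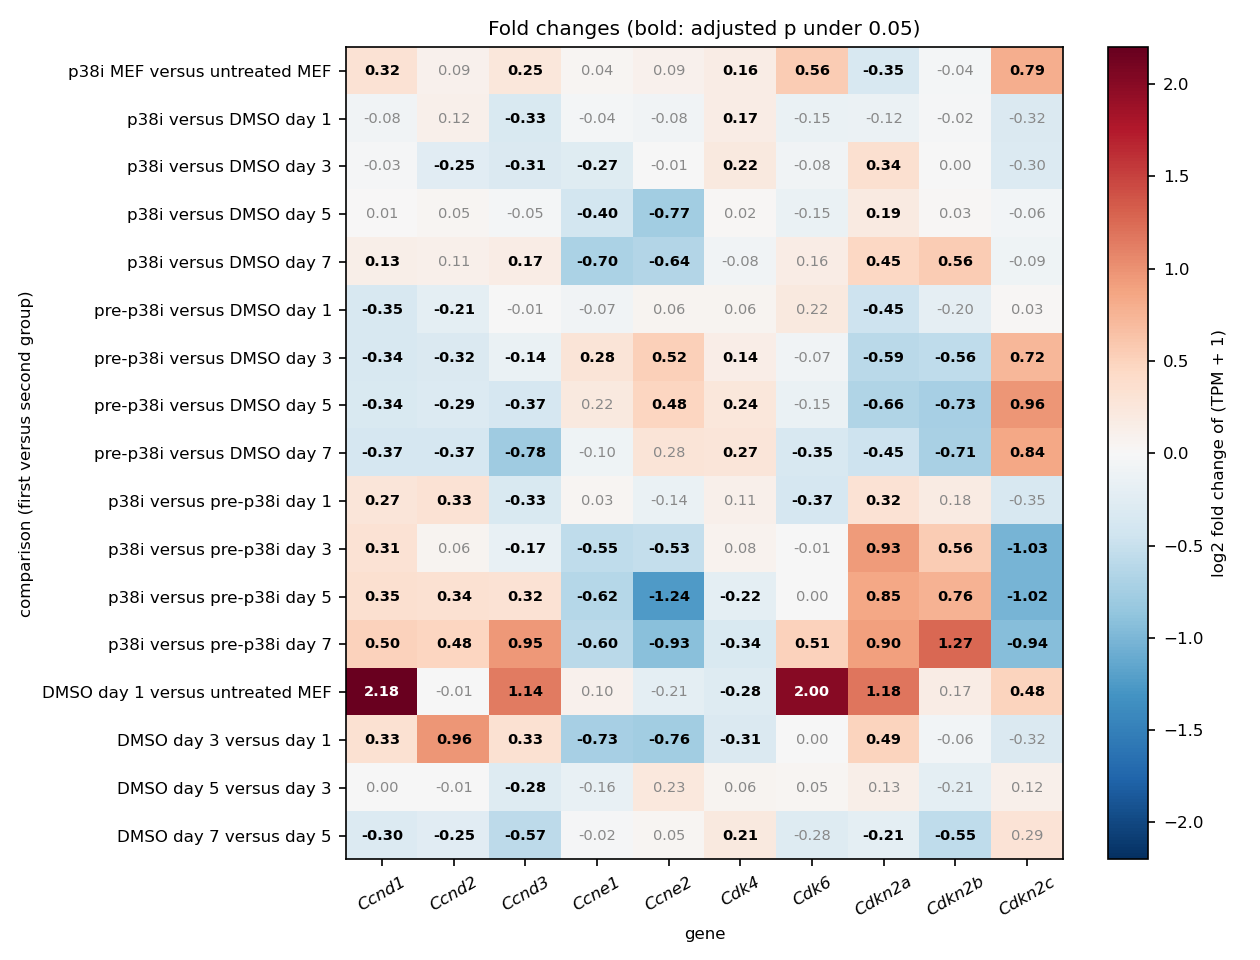
Log2 fold changes of TPM + 1 for the 10 genes (columns) in 17 comparisons of 2 groups (rows, the group named first against the group named second), with red for higher and blue for lower. Bold values have an adjusted p under 0.05 in limma. The strongest colours are those of Ccnd1 (2.18) and Cdk6 (2.00) in DMSO day 1 against untreated MEFs, and in the day 7 row of p38i against pre-p38i all 10 values are bold.

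Ccnd1, the D-type cyclin most responsive to mitogens, was the most abundant member in every induced group. It stood at 190 and 175 TPM in untreated MEFs, and in DMSO at 848 and 815 (day 1), 1031 and 1056 (day 3), 1008 and 1076 (day 5) and 842 and 855 (day 7). It rose by 2.18 ± 0.04 (log2, SE) to day 1 (adjusted p = 3.08e-19) and by 0.33 ± 0.04 to day 3 (adjusted p = 2.87e-06), and fell by 0.30 ± 0.04 from day 5 to day 7 (adjusted p = 3.61e-05). With p38i it was 783 and 788 (day 1), 1012 and 1027 (day 3), 1071 and 1020 (day 5) and 942 and 918 (day 7). No difference from DMSO was called on days 1, 3 and 5, and on day 7 both p38i libraries were above both DMSO libraries (log2 difference 0.13 ± 0.04, adjusted p = 0.0204). That call was lost without DMSO replicate 1, DMSO replicate 2 or p38i replicate 1 (differences of 0.11 to 0.14), with adjusted p from 0.00104 to 0.122 over 10 alternatives. With pre-p38i, Ccnd1 was 651 and 655 (day 1), 807 and 836 (day 3), 822 and 820 (day 5) and 656 and 657 (day 7). It was lower than in DMSO on every day, by 0.34 to 0.37 on the log2 scale, and by 0.35 ± 0.02 for the mean of the 4 days (adjusted p = 9.98e-11). On all 4 days no pre-p38i library reached a DMSO library of its day. In MEFs given p38i, Ccnd1 stood at 233 and 222, above untreated MEFs by 0.32 ± 0.04 (adjusted p = 2.22e-05). So the inhibitor went with higher Ccnd1 in MEFs and, given to the MEFs, with lower Ccnd1 in the cells induced afterwards. When only the groups compared were fitted, the calls in MEFs given p38i, p38i day 7, pre-p38i days 1 and 5, and DMSO day 7 against day 5 were lost (adjusted p = 0.0507 to 0.116).

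Ccnd2 encodes the D-type cyclin that many precursor and stem cells use beside Ccnd1. It did not follow Ccnd1 on day 1. Untreated MEFs had 219 and 208 TPM and DMSO cells 216 and 207 (day 1), 417 and 410 (day 3), 392 and 432 (day 5) and 341 and 353 (day 7). The rise came between day 1 and day 3 (0.96 ± 0.05, adjusted p = 3.51e-12), and from day 5 to day 7 Ccnd2 fell by 0.25 ± 0.05 (adjusted p = 0.000748). With p38i it was 228 and 231 (day 1), 340 and 353 (day 3), 434 and 418 (day 5) and 369 and 378 (day 7). It was lower than in DMSO on day 3 alone among the 4 days (by 0.25 ± 0.05, adjusted p = 0.000619), and no call was made for the mean of the days (0.00 ± 0.02, adjusted p = 0.892). With pre-p38i it was 178 and 188, 324 and 339, 336 and 335, and 275 and 261 on the same days. Every pre-p38i library was below both DMSO libraries of its day, and Ccnd2 was lower by 0.30 ± 0.02 for the mean of the days (adjusted p = 5.60e-09). The day 1 call was lost without DMSO replicate 1 or pre-p38i replicate 1 (differences of -0.18 to -0.17), with adjusted p from 0.00618 to 0.168 over 10 alternatives. In MEFs given p38i Ccnd2 was at 228 in both libraries, and no call was made (adjusted p = 0.194). The fit of only the groups compared ended the calls of p38i day 3, pre-p38i days 1, 3 and 5, and DMSO day 7 against day 5 (adjusted p = 0.0525 to 0.168).

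Ccnd3, a D-type cyclin that many differentiating cells keep, rose early and then fell. Untreated MEFs had 188 and 184 TPM, and DMSO cells 412 and 413 (day 1), 535 and 504 (day 3), 431 and 422 (day 5) and 283 and 292 (day 7). All 4 steps were called, with log2 changes of 1.14, 0.33, -0.28 and -0.57. It was the only member called from day 3 to day 5 (adjusted p = 0.000226). With p38i Ccnd3 was 320 and 335 (day 1), 428 and 409 (day 3), 431 and 394 (day 5) and 328 and 318 (day 7). It was lower than in DMSO on day 1 by 0.33 ± 0.05 (adjusted p = 4.70e-05) and on day 3 by 0.31 ± 0.05 (adjusted p = 6.22e-05), and on day 7 higher by 0.17 ± 0.05 (adjusted p = 0.00854). The day 7 call was lost without DMSO replicate 1 or p38i replicate 1 (differences of 0.14 to 0.15), with adjusted p from 0.00474 to 0.0772 over 10 alternatives. With pre-p38i it was 408 and 414 (day 1), 484 and 457 (day 3), 338 and 323 (day 5) and 166 and 168 (day 7). The difference from DMSO was -0.01 ± 0.05 on day 1 and -0.78 ± 0.05 on day 7 (adjusted p = 2.26e-10), where pre-p38i cells held the lowest Ccnd3 of the 14 groups, below untreated MEFs. The day 3 difference of -0.14 ± 0.05 (adjusted p = 0.0349) was not called without DMSO replicate 1 or pre-p38i replicate 2 (-0.10 for each), with adjusted p from 0.0211 to 0.271 over 10 alternatives. In MEFs given p38i Ccnd3 stood at 225 and 219, higher by 0.25 ± 0.05 (adjusted p = 0.000621). With only the groups compared, the calls of p38i days 3 and 7, pre-p38i day 3, p38i against pre-p38i on days 3 and 5, and DMSO day 5 against day 3 were lost (adjusted p = 0.0542 to 0.217).

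Cdk4, the main partner of D-type cyclins in these cells by transcript level, varied least. Its highest group mean, 462.0 ± 7.07 TPM (SD, n = 2) in MEFs given p38i, was 1.69 times its lowest, 273.0 ± 2.83 in DMSO day 3. It stood at 405 and 420 in untreated MEFs, and in DMSO at 327 and 353 (day 1), 275 and 271 (day 3), 288 and 282 (day 5) and 328 and 332 (day 7). It fell by 0.28 ± 0.05 to day 1 (adjusted p = 4.42e-05) and by 0.31 ± 0.05 to day 3 (adjusted p = 1.95e-05), while Ccnd1 and Ccnd3 rose, and it rose by 0.21 ± 0.05 from day 5 to day 7 (adjusted p = 0.00249). With p38i it was 394 and 372, 324 and 312, 284 and 296, and 320 and 306 on days 1, 3, 5 and 7. The difference from DMSO was 0.22 ± 0.05 on day 3 (adjusted p = 0.00215) and 0.08 ± 0.02 for the mean of the days (adjusted p = 0.00601). Pre-p38i cells had 353 and 355, 302 and 301, 353 and 322, and 404 and 390. Cdk4 was higher than in DMSO by 0.24 ± 0.05 on day 5 (adjusted p = 0.00076), by 0.27 ± 0.05 on day 7 (adjusted p = 0.000259) and by 0.18 ± 0.02 for the mean of the days (adjusted p = 5.22e-06). Smaller differences were less firm. The call of 0.17 for p38i on day 1 was lost without DMSO replicate 1 or p38i replicate 1 (0.12 to 0.13, adjusted p from 0.0106 to 0.231 over 10 alternatives). The call of 0.16 in MEFs given p38i (467 and 457 TPM) was lost without untreated replicate 1 or either p38i library (0.14 to 0.18, adjusted p from 0.0181 to 0.141 over 10 alternatives). The call of 0.14 for pre-p38i on day 3 was lost without any 1 of the 4 libraries (0.13 to 0.15, adjusted p from 0.0334 to 0.172 over 10 alternatives). In the fit of only the groups compared, the calls in MEFs given p38i, p38i days 1 and 3, pre-p38i days 3 and 5, and p38i against pre-p38i on day 5 were lost (adjusted p = 0.0595 to 0.231).

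Cdk6, which shares its cyclins and inhibitors with Cdk4, was at 6 and 7 TPM in untreated MEFs and at 10 in both libraries of MEFs given p38i (0.56 ± 0.11, adjusted p = 0.00154). In DMSO it was 28 and 30 (day 1), 31 and 27 (day 3), 30 and 30 (day 5) and 23 and 26 (day 7). The rise to day 1 was 2.00 ± 0.11 (adjusted p = 7.24e-12), and no later step was called. It still made up only 1.55% ± 0.127 (SD, n = 2) of Cdk4 plus Cdk6 transcripts in untreated MEFs and 9.60% ± 0.757 in DMSO day 3. With p38i it lay between 24 and 31 on all days, and no difference from DMSO was called. With pre-p38i it was 34 and 34 (day 1), 29 and 26 (day 3), 27 and 27 (day 5) and 20 and 18 (day 7). Only the day 7 difference from DMSO was called (-0.35 ± 0.11, adjusted p = 0.0241), and the call was lost without DMSO replicate 2 or pre-p38i replicate 2 (-0.28 to -0.26, adjusted p from 0.00586 to 0.194 over 10 alternatives). The order of the group means could not be read further, since 9 of its 13 neighbouring pairs overlapped. Fitted with only the groups compared, the calls in MEFs given p38i (adjusted p = 0.0956) and in pre-p38i day 7 (adjusted p = 0.122) were lost.

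**Figure D2:**
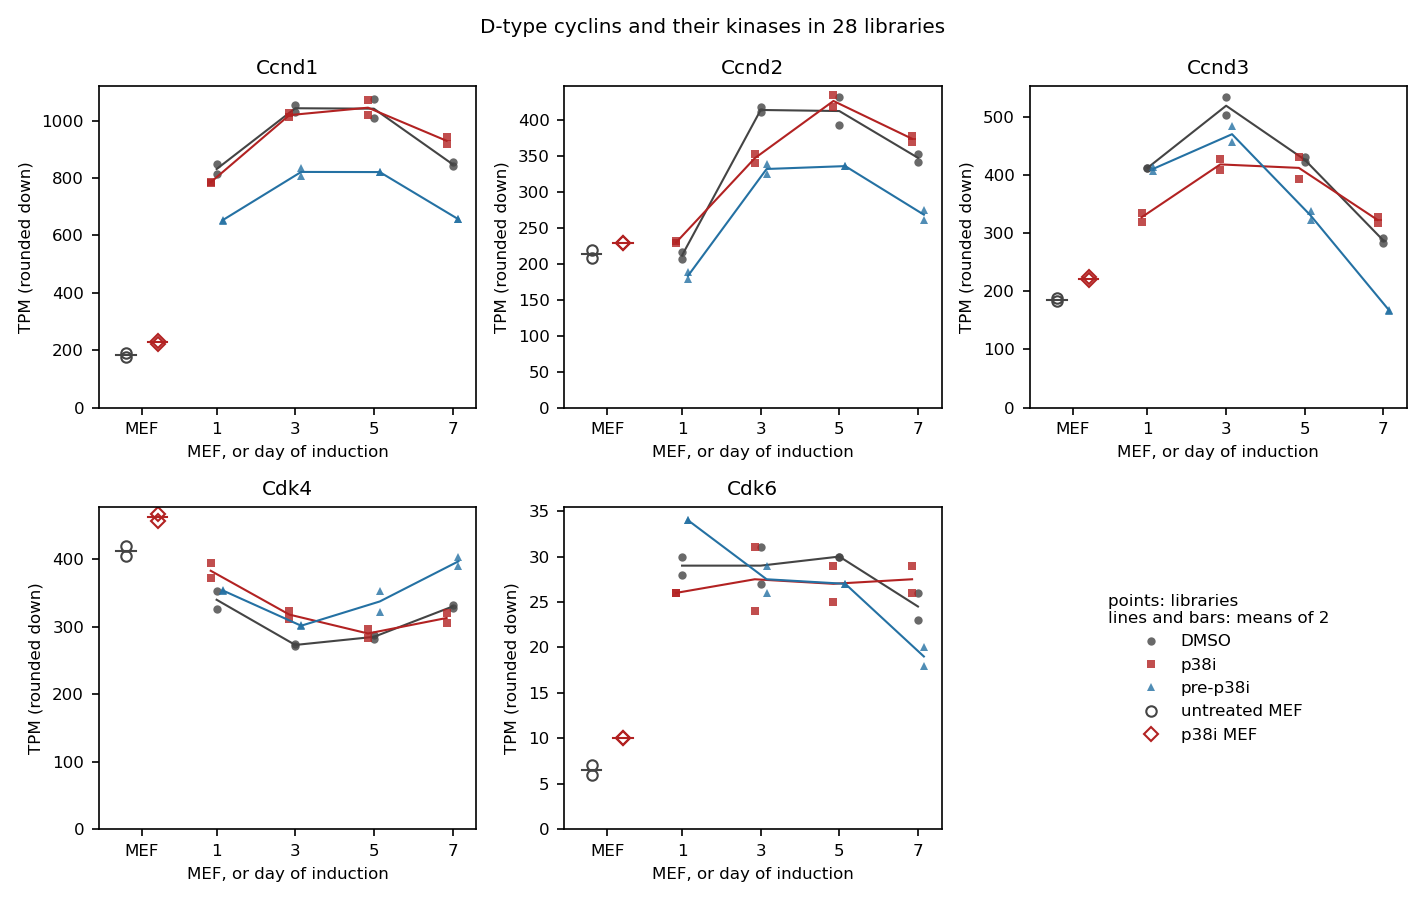
TPM of the D-type cyclins Ccnd1, Ccnd2 and Ccnd3 and of the kinases Cdk4 and Cdk6 (vertical axes from 0), in MEFs and on days 1, 3, 5 and 7 of induction. Points are the 28 libraries, and lines and bars are means of 2. The pre-p38i points of Ccnd1 and Ccnd2 lie below the DMSO points on every day, and Ccnd3 in pre-p38i falls to 166 and 168 TPM on day 7.

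Ccne1, an E2F target and partner of CDK2, kept its MEF level to day 1 and fell by day 3. Untreated MEFs had 67 TPM in both libraries, and DMSO cells 72 and 72 (day 1), 43 and 43 (day 3), 39 and 38 (day 5) and 40 and 36 (day 7). The fall from day 1 to day 3 was by 0.73 ± 0.08 (adjusted p = 7.79e-07), and no other step of the course was called. With p38i Ccne1 was 64 and 77 (day 1), 36 and 35 (day 3), 27 and 31 (day 5) and 23 in both libraries (day 7). From day 3 on, both p38i libraries lay below both DMSO libraries, and the difference widened from -0.04 ± 0.08 on day 1 to -0.40 ± 0.08 on day 5 (adjusted p = 0.00159) and -0.70 ± 0.08 on day 7 (adjusted p = 3.22e-06). The day 3 call (-0.27, adjusted p = 0.0279) was lost without any 1 of the 4 libraries (-0.25 to -0.29), with adjusted p from 0.0255 to 0.134 over 10 alternatives. Quantile normalization and a replicate block within the time point ended it too, and the difference ranged from -0.29 to -0.20 over the 10 alternatives. With pre-p38i Ccne1 was 69 and 68, 51 and 54, 46 and 44, and 33 and 38 on days 1, 3, 5 and 7. It was called higher than in DMSO on day 3 (0.28 ± 0.08, adjusted p = 0.0234), a call lost without any 1 of the 4 libraries (0.24 to 0.32, adjusted p from 0.0204 to 0.147 over 10 alternatives). By day 7 the pre-p38i and DMSO libraries overlapped. MEFs given p38i had 66 and 72, and no call was made (adjusted p = 0.854). Of these calls, p38i day 5 (adjusted p = 0.113) and pre-p38i day 3 (adjusted p = 0.0711) were lost when only the groups compared were fitted.

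Ccne2, the other E-type cyclin, was the lowest member but for Cdk6 and Cdkn2c in some groups. It was 21 and 22 TPM in untreated MEFs, 25 and 21 in MEFs given p38i, and in DMSO 19 and 18, 10 and 11, 12 and 13, and 14 and 12 on days 1, 3, 5 and 7. It fell from day 1 to day 3 by 0.76 ± 0.17 (adjusted p = 0.00121). With p38i it was 19 and 16, 9 and 12, 6 and 8, and 7 and 9, and from day 5 on all p38i libraries were below all DMSO libraries. The difference from DMSO was -0.77 ± 0.17 on day 5 (adjusted p = 0.00251), -0.64 ± 0.17 on day 7 (adjusted p = 0.00666) and -0.37 ± 0.09 for the mean of the days (adjusted p = 0.00132). The day 5 call was lost without p38i replicate 1 (-0.58, adjusted p from 0.00218 to 0.111 over 10 alternatives), and that of day 7 without DMSO replicate 1 or p38i replicate 1 (-0.54 to -0.48, adjusted p from 0.00575 to 0.101 over 10 alternatives). In pre-p38i cells it was 22 and 17, 15 and 16, 21 and 15, and 16 and 16, higher than in DMSO by 0.34 ± 0.09 for the mean of the days (adjusted p = 0.00346). The single-day calls of 0.52 on day 3 and 0.48 on day 5 were weak. The day 3 call was lost without any 1 of the 4 libraries (0.46 to 0.58, adjusted p from 0.0317 to 0.180 over 10 alternatives). The day 5 call was lost without DMSO replicate 1, DMSO replicate 2 or pre-p38i replicate 1 (0.25 to 0.53, adjusted p from 0.0166 to 0.435 over 10 alternatives), and without pre-p38i replicate 1 the difference was 0.25. All 4 of these calls of a treated group against DMSO on a single day were lost when only the groups compared were fitted, as were those of p38i against pre-p38i on days 3 and 5 (adjusted p = 0.0561 to 0.241).

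Cdkn2a, the Ink4/Arf gene, rose at the start of induction, and p38i and pre-p38i cells came to lie on opposite sides of the DMSO cells. Untreated MEFs had 90 and 97 TPM, and DMSO cells 213 and 213 (day 1), 287 and 313 (day 3), 328 and 328 (day 5) and 272 and 295 (day 7). It rose by 1.18 ± 0.06 to day 1 (adjusted p = 3.11e-12) and by 0.49 ± 0.06 to day 3 (adjusted p = 2.77e-06). The fall of 0.21 from day 5 to day 7 (adjusted p = 0.0175) was not called without DMSO day 5 replicate 1, DMSO day 5 replicate 2 or DMSO day 7 replicate 1 (-0.15 to -0.21, adjusted p from 0.00553 to 0.189 over 10 alternatives). With p38i Cdkn2a was 198 and 193 (day 1), 365 and 397 (day 3), 374 and 377 (day 5) and 374 and 402 (day 7). On day 1 it did not differ by the test (-0.12 ± 0.06, adjusted p = 0.209), and from day 3 on every p38i library was above every DMSO library of the course. The difference was 0.34 ± 0.06 on day 3 (adjusted p = 0.000502) and 0.45 ± 0.06 on day 7 (adjusted p = 1.64e-05), and that of day 5 (0.19, adjusted p = 0.0275) was not called without any 1 of the 4 libraries (0.19 to 0.20, adjusted p from 0.00832 to 0.106 over 10 alternatives). With pre-p38i it was 161 and 151 (day 1), 200 and 198 (day 3), 198 and 218 (day 5) and 201 and 213 (day 7). It was lower than in DMSO on all 4 days, by 0.45 ± 0.06, 0.59 ± 0.06, 0.66 ± 0.06 and 0.45 ± 0.06, with adjusted p from 2.72e-07 to 9.52e-05. MEFs given p38i had 70 and 76, lower by 0.35 ± 0.06 (adjusted p = 0.000498). Set side by side, day 7 means were 388.0 ± 19.8 TPM with p38i, 283.5 ± 16.3 in DMSO and 207.0 ± 8.49 with pre-p38i (SD, n = 2), and p38i exceeded pre-p38i by 0.90 ± 0.06 (adjusted p = 4.10e-10). Fitting only the groups compared ended the calls in MEFs given p38i, p38i day 3, pre-p38i day 1, p38i against pre-p38i on day 1, and DMSO day 7 against day 5 (adjusted p = 0.0536 to 0.122).

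Cdkn2b (p15Ink4b), its neighbour, did not rise with it. Untreated MEFs had 83 and 78 TPM, and DMSO cells 93 and 88 (day 1), 87 and 86 (day 3), 76 and 73 (day 5) and 52 and 49 (day 7). The only called step was the fall from day 5 to day 7, by 0.55 ± 0.08 (adjusted p = 5.35e-05). With p38i it was 98 and 81, 89 and 84, 74 and 78, and 77 and 73 on days 1, 3, 5 and 7. It stayed within 0.03 of DMSO on the log2 scale until day 5 and was higher on day 7 by 0.56 ± 0.08 (adjusted p = 2.65e-05). Between day 5 and day 7 it thus kept its level with p38i, while the DMSO value fell. Pre-p38i cells had 82 and 75, 56 and 61, 42 and 47, and 32 and 29. Its differences from DMSO on days 3, 5 and 7 were -0.56 ± 0.08 (adjusted p = 8.00e-05), -0.73 ± 0.08 (adjusted p = 1.79e-06) and -0.71 ± 0.08 (adjusted p = 1.73e-06). The day 7 difference between p38i and pre-p38i, 1.27 ± 0.08 (adjusted p = 1.29e-10), was the largest of the 10 members in that comparison. The p38i-treated MEFs had 80 and 77, and no call was made (adjusted p = 0.878). The pre-p38i day 3 call alone was lost with only the groups compared (adjusted p = 0.0509).

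Cdkn2c (p18Ink4c) went the other way. It was 14 and 17 TPM in untreated MEFs and 28 and 27 in MEFs given p38i, higher by 0.79 ± 0.14 (adjusted p = 0.000503). DMSO cells had 23 and 21 (day 1), 19 and 16 (day 3), 18 and 20 (day 5) and 24 and 23 (day 7). The rise to day 1 (0.48, adjusted p = 0.00674) was not called without untreated replicate 1 or DMSO replicate 1 (0.35 to 0.42, adjusted p from 0.00564 to 0.130 over 10 alternatives). With pre-p38i Cdkn2c was 21 and 24 (day 1), 28 and 31 (day 3), 37 and 39 (day 5) and 41 and 45 (day 7). From day 3 on every pre-p38i library was above every DMSO library of the course, by 0.72 ± 0.14 on day 3 (adjusted p = 0.00115), 0.96 ± 0.14 on day 5 (adjusted p = 4.30e-05) and 0.84 ± 0.14 on day 7 (adjusted p = 0.000147). On day 1, the day nearest to the treatment, the pre-p38i and DMSO libraries overlapped (0.03 ± 0.14, adjusted p = 0.965). With p38i it was 16 and 19, 15 and 13, 22 and 15, and 21 and 23, and no single day was called. For the mean of the days it was lower by 0.19 ± 0.07 (adjusted p = 0.0315), a call lost without any 1 of 8 of the 16 libraries (-0.13 to -0.18, adjusted p from 0.00225 to 0.251 over 22 alternatives). These 8 were replicate 1 of DMSO days 1, 3 and 7 and of p38i days 1 and 7, and replicate 2 of DMSO day 5 and of p38i days 3 and 5. Without p38i day 5 replicate 2 the difference was -0.13. Quantile normalization ended this call too, and over the 22 alternatives the difference ranged from -0.26 to -0.10. Lost with only the groups compared were the calls in MEFs given p38i, DMSO day 1 against MEFs, pre-p38i day 3, p38i against pre-p38i on day 5 and the p38i mean of the days (adjusted p = 0.0652 to 0.0865).

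**Figure D3:**
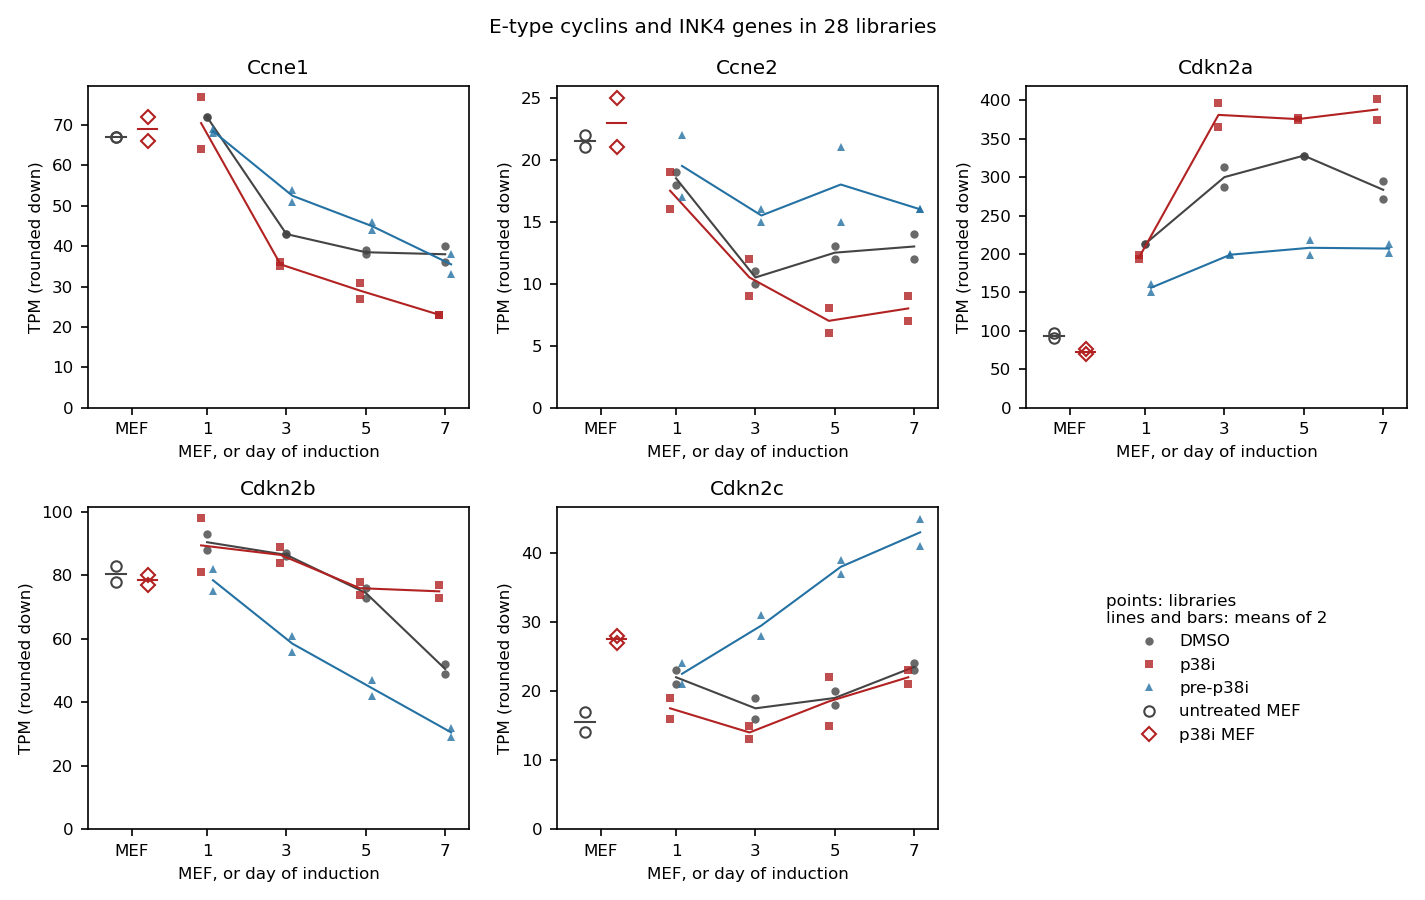
TPM of the E-type cyclins Ccne1 and Ccne2 and of the INK4 genes Cdkn2a, Cdkn2b and Cdkn2c (vertical axes from 0), in MEFs and on days 1, 3, 5 and 7 of induction. Points are the 28 libraries, and lines and bars are means of 2. On day 7 p38i is highest for Cdkn2a (374 and 402 TPM) and pre-p38i highest for Cdkn2c (41 and 45) and lowest for Cdkn2b (32 and 29).

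The balance of the members was described by ratios of summed TPM, with no test. The INK4 sums hold Cdkn2a, Cdkn2b and Cdkn2c, leave out the INK4 gene Cdkn2d, and count the p19Arf transcripts of Cdkn2a. D-type cyclin transcripts outnumbered E-type transcripts by 6.58 ± 0.292 (SD, n = 2) in untreated MEFs and by 16.1 ± 0.195, 36.9 ± 0.660, 36.9 ± 1.37 and 29.2 ± 2.90 on days 1, 3, 5 and 7 in DMSO. On day 7 this ratio was 52.5 ± 2.97 with p38i and 21.2 ± 1.61 with pre-p38i, and the libraries of the 3 conditions did not overlap. The 3 INK4 genes summed to 0.452 ± 0.00378 transcripts per Cdk4 or Cdk6 transcript in untreated MEFs, 1.34 ± 0.0766 in DMSO day 3 and 1.01 ± 0.0238 in DMSO day 7. With p38i the day 7 ratio was 1.43 ± 0.0866 and with pre-p38i 0.675 ± 0.0405. Within these 3 INK4 genes, the make-up shifted as well. Cdkn2c made up 15.4% ± 0.516 of their transcripts in MEFs given p38i against 8.17% ± 0.967 in untreated MEFs. Its share was 15.3% ± 0.506 in pre-p38i day 7 against 6.58% ± 0.445 in DMSO day 7. Ccnd1 made up 31.3% ± 0.680 of D-type transcripts in untreated MEFs and 57.1% ± 0.465 in DMSO day 1, so the D-type set passed from an even mix to one led by Ccnd1.

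**Figure D4:**
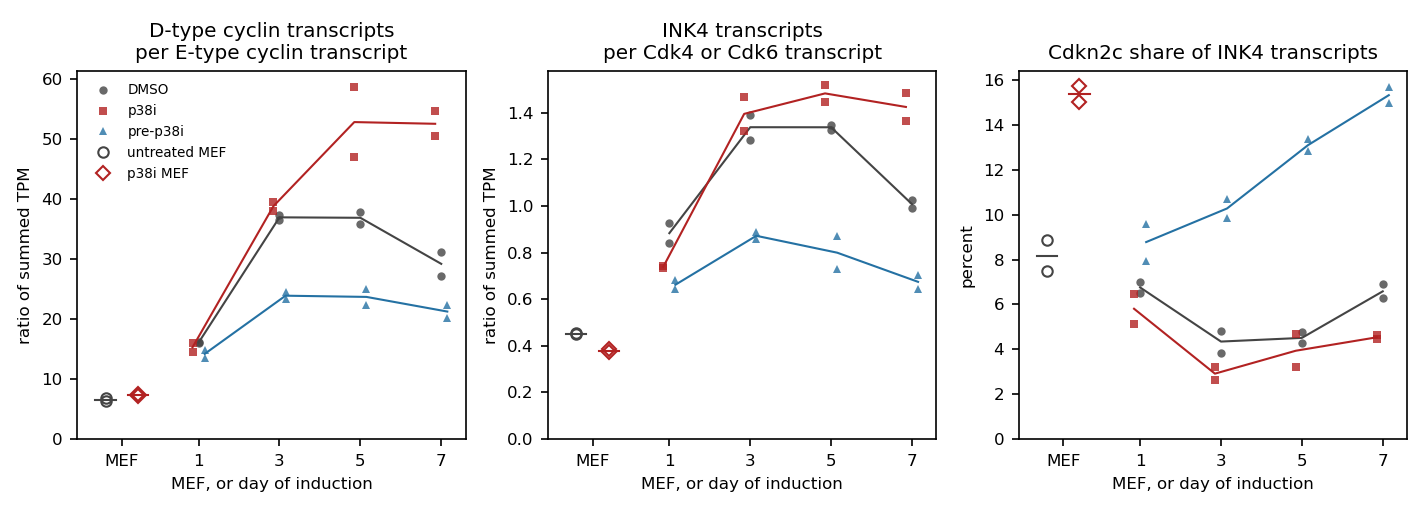
Ratios of summed TPM per library (vertical axes from 0) in MEFs and on days 1, 3, 5 and 7 of induction: D-type per E-type cyclin transcript, INK4 per Cdk4 or Cdk6 transcript, and the percentage of INK4 transcripts that come from Cdkn2c. INK4 here means Cdkn2a (with its p19Arf transcripts), Cdkn2b and Cdkn2c, without Cdkn2d. Points are libraries, and lines and bars are means of 2. On day 7 p38i is highest and pre-p38i lowest in the left and middle panels (52.5 against 21.2, and 1.43 against 0.675), and pre-p38i is highest in the right panel (15.3%).

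Since induced cells move along a course, a treated group can resemble another DMSO day more than its own. The nearest DMSO day over all tested genes was day 3 for p38i day 5, day 5 for p38i day 7, day 5 for pre-p38i day 3 and day 7 for pre-p38i day 5, and for the other 4 treated groups it was their own day. The 4 groups were therefore also compared with their nearest DMSO day, a choice made after seeing the data. For p38i day 7 against DMSO day 5, 7 members were called (23.6% of all genes), and for p38i day 5 against DMSO day 3, 4 members (20.5%). Ccne1 stayed lower in both (-0.72 and -0.56), Ccne2 stayed lower (-0.59 and -0.53), and Cdkn2a stayed higher (0.24 and 0.32). The day 7 differences of Ccnd1 and Ccnd3 turned from higher to lower (-0.16 and -0.40), and that of Cdkn2b shrank to 0.01 ± 0.08 (adjusted p = 0.976). For pre-p38i day 3 against DMSO day 5, 6 members were called (13.4%), and for pre-p38i day 5 against DMSO day 7, 3 members (14.3%). Cdkn2a stayed lower (-0.72 and -0.45) and Cdkn2c higher (0.61 and 0.67) in both. Ccnd1 and Ccnd2 were lower in pre-p38i day 3 (-0.34 and -0.31) but were not called in pre-p38i day 5 (-0.05 for each). Ccnd3 was higher than at the nearest DMSO day in pre-p38i day 5 (0.20, adjusted p = 0.00649). Thus Ccne1, Ccne2 and Cdkn2a under p38i, and Cdkn2a and Cdkn2c under pre-p38i, were called against both DMSO days in each of these groups.

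**Figure D5:**
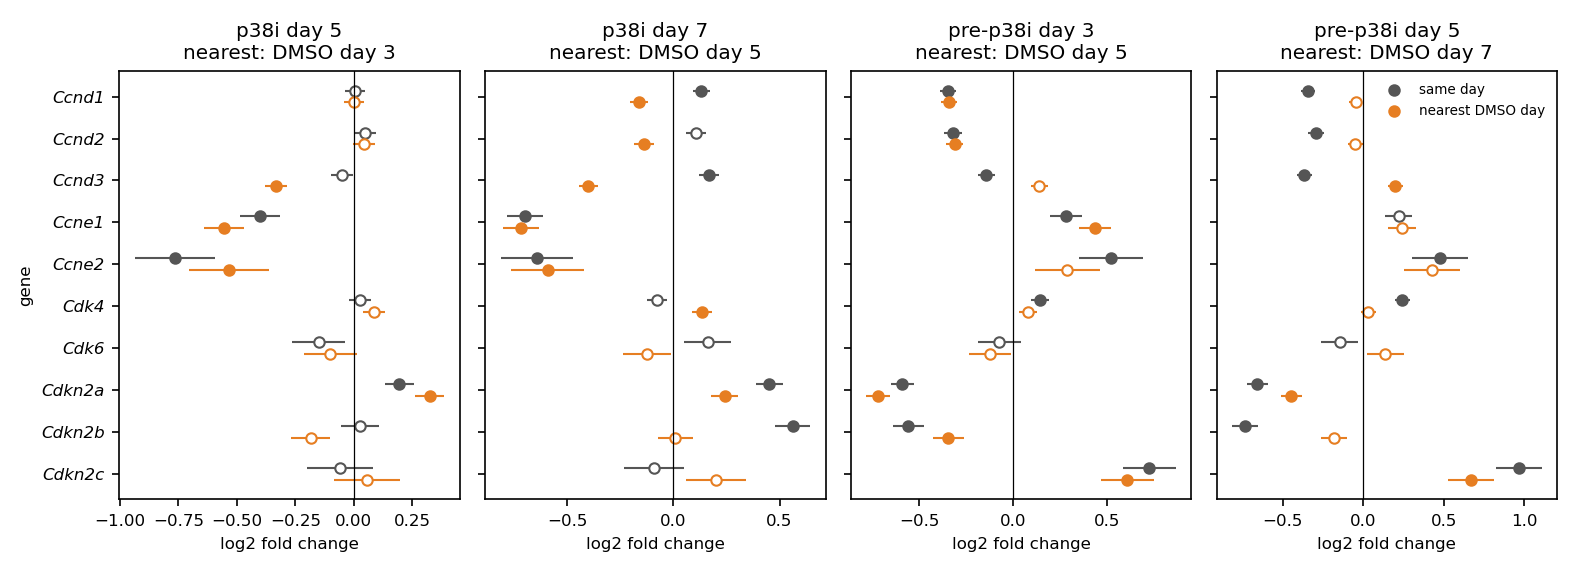
Log2 fold changes of TPM + 1 (horizontal axes) of the 10 genes in the 4 treated groups whose nearest DMSO day is not their own, against DMSO of the same day (grey) and of the nearest day (orange). Bars are standard errors from limma, and filled points have an adjusted p under 0.05. Cdkn2a lies on the same side of 0 for both choices in all 4 panels, and Ccnd3 changes side in p38i day 7, pre-p38i day 3 and pre-p38i day 5.

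The rest of the G1 pathway was read from gene lists. Of 20 E2F target genes of S phase, 20 fell and none rose with p38i for the mean of the days (33% of all genes fell), with a median log2 change of -0.43 against -0.07 for all genes. With pre-p38i 19 rose and none fell (27.3% of all genes rose), with a median of 0.52 against 0.05. In MEFs given p38i 10 rose and none fell (9.73% rose). Pcna, the sliding clamp of replication, was 264 and 260 TPM in DMSO day 7, 170 and 174 with p38i and 336 and 332 with pre-p38i. Rrm2, a subunit of ribonucleotide reductase, was 194 and 187, 96 and 94, and 264 and 269 in the same groups. Both genes were lowest with p38i on day 7, as were Ccne1 and Ccne2, and highest with pre-p38i, where Ccne1 was not above DMSO. The 14 mitotic genes moved alike, with all 14 lower with p38i and all 14 higher with pre-p38i for the mean of the days. Their summed level was 1060 to 1074 TPM in DMSO day 7, 529 to 542 with p38i and 1660 to 1669 with pre-p38i. Transcripts of E-type cyclins vary through the cell cycle. For the mean of the days, S-phase and mitotic transcripts moved with Ccne1 and Ccne2 for p38i and with Ccne2 for pre-p38i. On day 1 the mitotic sum was 1007 to 1008 TPM with p38i and 1248 to 1267 in DMSO. The Ccne1 and Ccne2 libraries of these groups overlapped. From DMSO day 3 to day 7 the mean mitotic sum went from 641 to 1067, and mean Ccne1 from 43 to 38. Ccne2 moved in the direction of the mitotic sum, from 10 and 11 TPM in DMSO day 3 to 14 and 12 in DMSO day 7. The part of S-phase and mitotic transcripts in the E-type cyclin results was not tested. Of 7 genes for CDK2 and CDK activators, 4 fell with p38i and 4 rose with pre-p38i, against 33% and 27.3% of all genes. Cdk2, the kinase of E-type cyclins, was 55 and 54 in DMSO day 7, 30 and 32 with p38i and 71 and 83 with pre-p38i.

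Of 13 pocket proteins and E2F factors, 1 rose and 6 fell with p38i (14.9% and 33% of all genes), and 9 rose and none fell with pre-p38i (27.3% and 17.7%), for the mean of the days. E2F dimer partner Tfdp1 fell with p38i by 0.23 ± 0.03 (adjusted p = 2.24e-06) and rose with pre-p38i by 0.29 ± 0.03 (adjusted p = 8.76e-08). Of the other CDK inhibitors (Cdkn2d, Cdkn1a, Cdkn1b and Cdkn1c), 1 rose and 1 fell with p38i, near the shares of all genes, and 2 rose and 2 fell with pre-p38i. Cdkn1a (p21), a p53 target that binds cyclin complexes, was the most abundant of all inhibitors. It was 384 and 370 TPM in untreated MEFs, 275 and 267 in MEFs given p38i, and 971 and 950 in DMSO day 1. Unlike Cdkn2a, it was lower in both treatments for the mean of the days, by 0.33 ± 0.02 with p38i (adjusted p = 4.00e-10) and by 0.22 ± 0.02 with pre-p38i (adjusted p = 1.21e-07). Cdkn2d (p19Ink4d), the remaining INK4 gene, was 19 and 20 in untreated MEFs and 34 and 29 in MEFs given p38i, a rise of 0.66 ± 0.12 (adjusted p = 0.000661) beside that of Cdkn2c.

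Markers of another cell type moved with the treatments. Of 8 macrophage markers tested, 6 fell in MEFs given p38i (8.15% of all genes fell), and for the mean of the days 7 fell with p38i (33%) and all 8 with pre-p38i (17.7%). Their sum was 278 to 288 TPM in untreated MEFs and 188 to 195 in MEFs given p38i. On day 7 it was 191 to 201 in DMSO, 185 to 212 with p38i and 33 to 44 with pre-p38i. Lyz2 ranged from 7 to 275 TPM over the libraries and Cd68 from 17 to 87. Of the more specific markers, C1qa, C1qb and C1qc were detected at up to 29, 32 and 26, Csf1r at up to 15 and Adgre1 and Cd14 at up to 14, while Ptprc and Fcgr1 stayed at 0 to 2. The macrophage markers fell together with Cdkn2a in MEFs given p38i and in pre-p38i cells, and fell while Cdkn2a rose in p38i cells, and their part in the result was not tested. Of 10 fibroblast markers, 7 fell and 2 rose with p38i and all 10 fell with pre-p38i for the mean of the days, against the same shares of all genes (14.9% rose with p38i). The fibroblast sum was 3390 to 3573 TPM in DMSO day 7, 4455 to 4465 with p38i and 2374 to 2518 with pre-p38i. On that day the means of Cdkn2b, Cdkn2a, Cdk6 and the D-type cyclins had the same order. On day 3 the mean fibroblast sum was 6013.5 with p38i and 7335 in DMSO, while mean Cdkn2b was 86.5 in both. Mean Cdkn2a was then 381 with p38i and 300 in DMSO. Mean Ccnd2 (346.5 with p38i, 413.5 in DMSO) and Ccnd3 (418.5 and 519.5) had the order of the fibroblast sum. Ccnd1 and Cdk6 were not called on that day. The part of remaining fibroblasts in these values was not tested.

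The genes whose pattern over the 14 group means was most like that of a member were searched among 10667 genes with a mean of at least 5, as a description. For Ccnd1 they were Cdc42bpg and Lpin1 (Pearson r of 0.989 and 0.986), for Ccnd2 Arsg and Ccpg1 (0.946 and 0.929) and for Ccnd3 B630019K06Rik and Smpd1 (0.959 and 0.950). For Cdk4 they were Rpl8 and Hn1 (0.972 and 0.961), and for Cdk6 Tmem35a and Adamtsl1 (0.989 and 0.985). For Ccne1 they were Fam111a and Capza1 (0.973 and 0.946), and for Ccne2 Cenpe and Diaph3 (0.984 and 0.977). For Cdkn2a they were Slc39a11 and Gadd45a (0.973 and 0.966), and for Cdkn2c Brms1l and Cdkn2aip (0.943 and 0.925). Among the members themselves Ccnd1 was closest to Cdk6 (0.94), and Cdkn2b and Cdkn2c were opposed (-0.84). The 14 points share the step from MEFs to induced cells.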

How the data were processed

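The data are 28 mouse RNA-seq libraries, made from poly(A) RNA with random-hexamer priming. Per the submitters' processing notes, bcl2fastq, Bowtie2 2.2.5, RSEM 1.3.0 and the builds mm10 and hg38 were used, with no role given for each. The labels and the study's methods name different versions of the library kit, different RNA extraction and different MEF medium. The authors deposited a score per gene and library, a whole number read as TPM rounded down, and its depth is unknown. No deposited per-sample column was left unused.

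log2(TPM + 1) was fitted with limma 3.58.1 (lmFit, eBayes with trend, R 4.3.3) over all 14 groups for genes whose mean was 1 or more, using Benjamini-Hochberg adjustment. The fit was first tried on simulated data with 200 genes changed in p38i day 7. Of 100 genes changed by 0.5 on the log2 scale 48 were called, and of 100 changed by 1, 90. Of all calls 6.12% were false. A small difference that was not called is thus not shown to be absent. The simulation changed only these 200 genes, all with a mean of at least 5. In the data 34.1% of all genes were called for p38i day 7, so the simulated rates need not hold there. Other pseudocounts, filters, scalings, sample sets and a replicate block were tried. Gene lists cover E2F targets, mitotic genes, pocket proteins and E2F factors, other inhibitors, CDK2 and CDK activators, turnover, Polycomb and markers of 5 cell types. The members and lists were chosen with earlier results of these data known. All members are named, and from each list up to 3 genes with the highest mean, Cdkn1a, Cdkn2d and marker genes whose level bears on a cell type. Overlaps came from the annotation and BLAST 2.17.0+, and start-site windows from RefSeq. The likeness search for Cdkn2b is not reported here.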

Additional observations from a re-analysis of the deposited data

Results flagged for a closer look

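In 11 cases, 6 for p38i and 5 for pre-p38i, the difference of a member from DMSO on day 7 was unlike that on day 1, by limma's test of the difference between both differences (2 libraries in each of 4 groups, adjusted over all genes). All values are log2 differences of TPM + 1, day 7 minus day 1. For p38i, where 21.6% of all genes were called, they were 0.58 for Cdkn2b (adjusted p = 0.00123), 0.57 for Cdkn2a (0.000130), 0.50 for Ccnd3 (2.17e-05), 0.21 for Ccnd1 (0.0141), -0.25 for Cdk4 (0.0117) and -0.66 for Ccne1 (0.000555). For pre-p38i, where 16.7% were called, they were 0.81 for Cdkn2c (adjusted p = 0.00801), 0.21 for Cdk4 (0.0396), -0.51 for Cdkn2b (0.00469), -0.57 for Cdk6 (0.0173) and -0.77 for Ccnd3 (1.01e-07). Both sets share the DMSO libraries.

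Some of these calls rest on single libraries. For p38i, that of Ccnd1 was lost without replicate 1 of DMSO day 1, DMSO day 7 or p38i day 7 (0.19 to 0.20), and that of Cdk4 without replicate 1 of DMSO day 1 or p38i day 1 or replicate 2 of p38i day 7 (-0.22 to -0.19). For pre-p38i, that of Cdk6 was lost without replicate 1 of DMSO day 1 or replicate 2 of DMSO day 7 or pre-p38i day 7 (-0.52 to -0.49), and that of Cdk4 without any 1 of 7 of the 8 libraries (0.15 to 0.23), DMSO day 1 replicate 1 being the exception. Both Cdk4 calls were also lost when only the groups compared were fitted (adjusted p = 0.0659 for p38i and 0.0815 for pre-p38i).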

How the results depend on the processing

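Of 127 member calls over the 21 comparisons, a pseudocount of 0.1 ended 1, no filter 2, a minimum mean of 5 ended 0, quantile normalization 11 and the fit of only the groups compared 45, and no sign of a called value turned. Leaving out 1 library ended 25. The number of members called from DMSO day 3 to day 5 was 1, and became 2 with quantile normalization. With only the groups compared it was 1 for p38i in MEFs, 1, 1, 1 and 3 for p38i on days 1, 3, 5 and 7, 0, 2 and 4 for pre-p38i on days 1, 3 and 5, 5 for p38i against pre-p38i on day 5, 0 from DMSO day 3 to day 5 (3 at an unadjusted limma p under 0.05) and 3 from day 5 to day 7. This fit has fewer libraries to estimate the spread, and it called 2.71% to 46.4% of all genes where the full fit called 11.6% to 47.9% against DMSO.

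With 1 library left out, the number of members called ranged from 1 to 2 for p38i day 1, 1 to 2 for day 5, 3 to 6 for day 7, 5 to 6 for pre-p38i day 3 and 3 to 4 for the change of the pre-p38i difference from day 1 to day 7. In p38i against pre-p38i, Cdk6 on day 1 was lost without any 1 library, Ccnd3 on day 3 without p38i replicate 2 or pre-p38i replicate 1, and Ccne2 on day 3 without p38i replicate 1 (-0.34) or pre-p38i replicate 2.

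Same-numbered libraries did not deviate together (correlations of -0.016 to 0.051 within a time point), so replicate numbers were not taken as pairs. With the replicate block, 2 members were called from DMSO day 3 to day 5, 4 of the 127 calls were lost and 2 gained.

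Against the nearest DMSO day, p38i day 7 values became -0.16 for Ccnd1, -0.14 for Ccnd2, -0.40 for Ccnd3 and 0.13 for Cdk4, and Ccnd3 became 0.14 in pre-p38i day 3 and 0.20 in day 5, where 3 members were called. The cause was not tested.

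Quantile normalization raised the percentage of called genes that were higher in p38i than DMSO from 21.6 to 41.1 on day 1 and from 29.6 to 52.7 on day 5. With no read counts, depth cannot be weighed, and values under 10 TPM (Cdk6 in MEFs, Ccne2 with p38i) move in steps of 1.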

Other observations

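Polycomb proteins hold the Ink4/Arf locus silent in many cells. The summed level of 12 of their genes was 263 to 264 TPM in untreated MEFs, and on day 7 it was 401 to 406 in DMSO, 335 to 344 with p38i and 493 to 505 with pre-p38i. For the mean of the 4 days, 1 of 12 rose and 5 fell with p38i, and 5 rose and none fell with pre-p38i, while in MEFs given p38i none was called. Of 10 genes for the turnover of G1 cyclins and CDK inhibitors, 1 rose and 5 fell with p38i, and 5 rose and 1 fell with pre-p38i. The background shares are 14.9% of all genes higher and 33% lower for p38i, and 27.3% higher and 17.7% lower for pre-p38i.

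Markers of the cells that induction leads to were counted in the same way. Of 6 epithelial markers all 6 fell with p38i, and 4 rose with pre-p38i. Of 4 tested pluripotency markers (8 listed) all 4 fell with p38i, and 2 rose with pre-p38i. Their sum on day 7 was 74 to 86 TPM in DMSO, 8 to 10 with p38i and 131 to 136 with pre-p38i. Of 2 tested endothelial markers (5 listed), 1 fell with p38i and 1 rose with pre-p38i. Tek, an endothelial receptor, was at 0 in untreated MEFs and at 57 and 58 TPM in DMSO day 7, while Kdr stayed at 1 to 9 and Emcn, Cdh5 and Pecam1 at 0 to 2 in all libraries.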
